A study of Mus musculus with 4 samples.

Results

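The 10 genes described here mark Kupffer cells, the resident macrophages of the liver sinusoids: Clec4f, Timd4, Cd5l, Marco, Adgre1, Siglec1, Folr2, Cd163, Mrc1 and Csf1r. They were taken by symbol from the 21878 genes counted in RNA from mouse liver cells carrying the surface protein CD24, which were captured with magnetic beads (MACS). All 10 had a row in each table, and all 10 passed the filter on low counts. The study asked how CD24+ cells differ in expression between mice given HACY and mice given CCL4, with 2 libraries in each group. HACY stands for 3 small molecules given together by injection 3 times a week for 6 weeks: Y-27632 is a kinase inhibitor, A-83-01 blocks TGF-beta receptor kinases, and CHIR99021 blocks the kinase GSK3. CCL4 is carbon tetrachloride, a hepatotoxin, given in olive oil at 2 ml/kg, 2 times a week for 6 weeks. All mice were C57BL/6. Their age is given as 8 weeks at injection in the protocol and as 6 to 8 weeks in the sample labels. The labels leave unclear whether mice on HACY were given carbon tetrachloride too. No untreated or vehicle group was analysed here, and so a rise in HACY cannot be told apart from a fall in CCL4.

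Kupffer cells settle in the liver before birth and are kept alive by signalling through the CSF1 receptor. They take up bacteria, aged red cells, apoptotic cells and modified lipoproteins from portal blood, through scavenger receptors, lectins and phosphatidylserine receptors. Liver injury is known to deplete resident Kupffer cells, and monocytes that enter the liver can take on much of their gene expression, with Clec4f gained earlier than Timd4. The sorted cells are labelled as hepatocytes and as liver progenitor cells, not as macrophages, and each of the 10 genes was detected in all 4 libraries.

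Total counts were 18467299 to 19314219 per library. Nothing in the labels ties a replicate to an animal or culture of its own, and the p-values therefore cover the spread among these 4 samples alone, which may be technical. CCL4 replicate 2 stood apart in neutrophil RNA: 10 neutrophil markers summed to 54.4 and 51.4 counts per 1000000 (CPM, with library sizes scaled by the TMM method) in HACY libraries, against 44.1 in CCL4 replicate 1 and 264 in CCL4 replicate 2. Of 13428 genes tested with edgeR's quasi-likelihood test, 1100 were higher and 476 lower in HACY at an adjusted p below 0.05, against 856 higher and 1355 lower when libraries were scaled by total count alone, which moved the median log2 fold change of all genes to -0.18. Albumin RNA, the defining hepatocyte product, was abundant in every library, at 24005 and 30358 CPM in HACY and 6971 and 5497 CPM in CCL4.

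Promoter sequence was found for 7 of the 10 genes in RefSeq (GRCm38.p6, the assembly of mm10), each window running from 250 bases before the annotated start to 50 bases after it. The windows below are shown because factors of the MAF family act in Kupffer cells. The letters of a MAF half-site occur in the first 3 and not in that of Mrc1. They were also not found in the windows of Marco and Cd163, which rose, whereas Mrc1 was not called. A link of the letters to the difference between groups was not tested. Sequences are written 5′ to 3′ on the strand of the gene, and capitals mark TGCTGA or its reverse complement TCAGCA.
Clec4f, chr6:83656067-83656366, minus strand: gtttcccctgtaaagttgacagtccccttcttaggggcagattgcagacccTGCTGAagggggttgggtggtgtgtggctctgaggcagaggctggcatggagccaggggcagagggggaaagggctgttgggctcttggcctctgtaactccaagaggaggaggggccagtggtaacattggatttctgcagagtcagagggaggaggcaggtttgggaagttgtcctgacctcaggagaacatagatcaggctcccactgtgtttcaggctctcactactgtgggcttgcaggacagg
Timd4, chr11:46810549-46810848, plus strand: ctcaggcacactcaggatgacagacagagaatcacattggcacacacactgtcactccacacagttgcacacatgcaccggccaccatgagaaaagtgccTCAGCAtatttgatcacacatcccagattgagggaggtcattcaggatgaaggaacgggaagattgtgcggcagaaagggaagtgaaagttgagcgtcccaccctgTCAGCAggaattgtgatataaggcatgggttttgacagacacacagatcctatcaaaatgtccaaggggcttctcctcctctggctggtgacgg
Cd5l, chr3:87357631-87357930, plus strand: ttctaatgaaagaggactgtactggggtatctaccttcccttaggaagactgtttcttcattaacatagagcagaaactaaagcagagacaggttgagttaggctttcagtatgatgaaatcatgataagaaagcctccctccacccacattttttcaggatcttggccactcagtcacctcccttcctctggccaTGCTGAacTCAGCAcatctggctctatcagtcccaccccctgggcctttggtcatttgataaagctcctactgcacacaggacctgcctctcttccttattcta
Mrc1, chr2:14229164-14229463, plus strand: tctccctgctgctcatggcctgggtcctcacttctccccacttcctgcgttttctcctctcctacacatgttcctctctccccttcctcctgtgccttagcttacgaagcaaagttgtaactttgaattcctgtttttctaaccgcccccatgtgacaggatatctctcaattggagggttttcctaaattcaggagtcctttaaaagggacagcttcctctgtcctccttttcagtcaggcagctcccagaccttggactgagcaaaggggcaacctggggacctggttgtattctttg

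The letters TGCTGA occurred on either strand in 5 of the 8 windows of these genes (Folr2 has 2 annotated starts), against 19.5% of 32851 mouse promoter windows of the same length. Timd4 held them at 150 and 44 bases before the start, and Cd5l held an inverted pair beginning 54 and 46 bases before it. GAGGAA, the letters of a PU.1 site, occurred in 3 of the 8 windows against 28.3% of all, and 3 times in Mrc1 alone. TGGGAA, the letters bound by RBPJ, occurred in 2 windows against 25.6% of all. AGGTCA, a half-site of nuclear receptors, also occurred in 2, against 16.3%. The interferon factor motif of a pair of GAAA set 2 bases apart occurred in none, against 3.44%. No match overlapped another, and a match of letters is a description of the window, not a binding site.

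Kupffer cell genes were higher in HACY libraries. Of the 10 members, 9 rose and none fell at an edgeR adjusted p below 0.05, where 8.19% of all genes tested rose and 3.54% fell. The members were chosen with earlier results of these data known, so this comparison is a description. At an unadjusted p below 0.05 all 10 were higher and 0 lower, and DESeq2 and limma-voom each called the same numbers as edgeR. The median log2 fold change of the members was 1.81, against -0.0093 for all genes tested. Both HACY libraries lay above both CCL4 libraries in all 10 members on the CPM scale, as they did in 30.7% of all genes, and groups did not overlap in either direction in 60.8%. Together the members took 0.194% and 0.135% of the counts in HACY libraries, and 0.0543% and 0.0622% in CCL4 libraries. In bulk RNA, more cells of a type and more RNA per cell cannot be told apart.

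**Figure D1:**
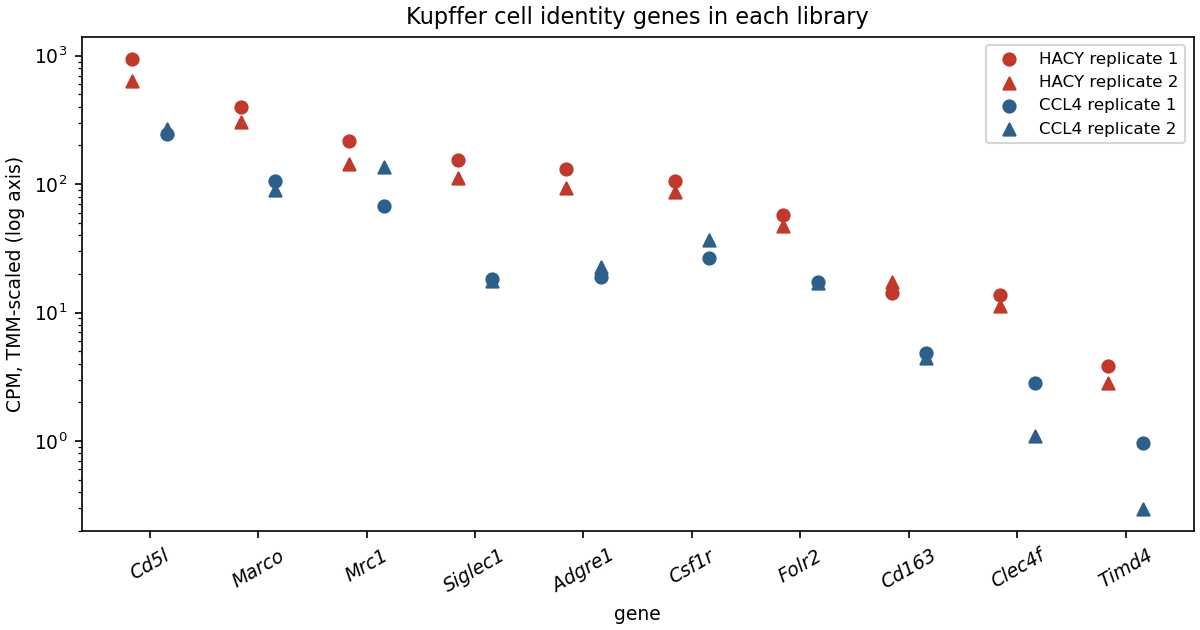
Abundance of the 10 genes in each library, as TMM-scaled CPM on a log axis, with HACY libraries (red) left of CCL4 libraries (blue) and circles and triangles for replicates 1 and 2. The HACY points lie above the CCL4 points in all 10 genes, narrowly so for Mrc1, where HACY replicate 2 had 144 CPM and CCL4 replicate 2 had 135 CPM.

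Clec4f and Timd4, the members most restricted to Kupffer cells among liver cells, had the fewest counts in CCL4 libraries. Clec4f, a C-type lectin that binds galactose-bearing glycans (chromosome 6, 83644542 to 83656187, GRCm38), had 249 and 198 counts in HACY libraries, against 56 and 22 in CCL4 libraries. On the CPM scale these were 13.6 and 11.2 in HACY, and 2.83 and 1.08 in CCL4. The groups were well separated, with the lower HACY library 3.97-fold above the higher CCL4 library. HACY exceeded CCL4 by 2.66 on the log2 scale (SE 0.44, edgeR adjusted p = 0.0119). Leaving out CCL4 replicate 1 gave 3.51 and leaving out CCL4 replicate 2 gave 2.13, with the call kept.

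Timd4, a phosphatidylserine receptor that binds apoptotic cells and is kept by long-lived resident macrophages (chromosome 11, 46810800 to 46844332), had 70 and 50 counts in HACY and 19 and 6 in CCL4. The exact Poisson 95% interval of the lowest of these, 6 counts, ran from 2.20 to 13.1, and that of the 19 counts from 11.4 to 29.7, covering counting error only. Groups did not overlap, but the call was the weakest of the 9 (log2 2.40, SE 0.57, adjusted p = 0.0393). With HACY replicate 1 left out the adjusted p was 0.168, and with HACY replicate 2 left out it was 0.0640, so that Timd4 no longer passed. The value was 3.47 without CCL4 replicate 1 and 1.79 without CCL4 replicate 2. Within the CCL4 group, both genes were lower in replicate 2, at 0.383 times replicate 1 for Clec4f and 0.308 times for Timd4.

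Scavenger receptors and their kin took most of the members' counts. Cd5l encodes a secreted protein of the scavenger receptor cysteine-rich family that macrophages release (chromosome 3, 87357881 to 87371073). It had 938 and 638 CPM in HACY, against 244 and 268 CPM in CCL4 (log2 1.62, SE 0.19, edgeR adjusted p = 0.00361). Its share of all member counts was similar in every library, 46.1% and 43.8% in HACY and 48.2% and 45.2% in CCL4.

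Marco, a class A scavenger receptor for bacteria and particles (chromosome 1, 120474538 to 120505024), had 402 and 304 CPM in HACY, against 105 and 90.1 CPM in CCL4 (log2 1.86, SE 0.17, edgeR adjusted p = 0.00183). Cd163, the receptor for haptoglobin-bound haemoglobin (chromosome 6, 124304656 to 124330527), had 14.3 and 17.3 CPM in HACY, against 4.85 and 4.44 in CCL4 (log2 1.76, SE 0.24, adjusted p = 0.00636). It was the only one of the 10 with a lower value in HACY replicate 1 than in HACY replicate 2. Folr2, folate receptor beta (chromosome 7, 101839988 to 101857194), had 57.1 and 47.3 CPM in HACY and 17.2 and 17.1 CPM in CCL4 (log2 1.61, SE 0.17, adjusted p = 0.00272). Its exons overlap those of the antisense gene Gm10602 in GENCODE M21, and since the strand setting of the counting is not given in the sources used here, reads of the pair cannot be told apart.

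Siglec1 and Adgre1 had the largest separations. Siglec1, or sialoadhesin (CD169), is a lectin for sialic acids that type I interferon is known to induce (chromosome 2, 131069220 to 131086765). It had 154 and 111 CPM in HACY libraries, against 18.3 and 17.7 CPM in CCL4 libraries. The lower HACY library was 6.07-fold above the higher CCL4 library, the widest gap among the members, and 55 of the 13428 genes tested had a larger log2 fold change (2.88, SE 0.19, edgeR adjusted p = 9.25e-04). Adgre1, the adhesion G protein-coupled receptor detected as F4/80 (chromosome 17, 57358691 to 57483527), had 131 and 93.5 CPM in HACY and 18.96 and 22.7 CPM in CCL4. Its log2 fold change was 2.43 (SE 0.20, adjusted p = 0.00153), with a 4.12-fold gap between the nearest libraries.

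Csf1r, the receptor for the survival factors CSF1 and IL-34, is shared by all cells of the monocyte and macrophage lineage (chromosome 18, 61100598 to 61132149). It had 105 and 87.6 CPM in HACY, against 26.7 and 36.9 CPM in CCL4 (log2 1.60, SE 0.19, edgeR adjusted p = 0.00390). Its exons overlap those of Hmgxb3 on the opposite strand, a gene with 1228 and 1113 counts in HACY and 1573 and 1493 counts in CCL4 (log2 -0.23, adjusted p = 0.271), and without a stated strand setting the reads of these neighbours may be shared.

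Mrc1 was the exception. It encodes the mannose receptor CD206, which sinusoidal endothelial cells carry as well as macrophages (chromosome 2, 14229392 to 14332057). Mrc1 had 216 and 144 CPM in HACY, against 67.6 and 135 CPM in CCL4. HACY replicate 2 and CCL4 replicate 2 were nearly equal, and on the FPKM scale (counts per transcript length and library size, made by the authors) the groups overlapped, with 31.4 and 19.9 in HACY and 10.2 and 21.2 in CCL4. HACY exceeded CCL4 by 0.83 on the log2 scale (SE 0.33), short of the threshold (edgeR adjusted p = 0.142), and by 1.41 without CCL4 replicate 2 (adjusted p = 0.0125). Without CCL4 replicate 1 it was 0.42 (adjusted p = 0.290).

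**Figure D2:**
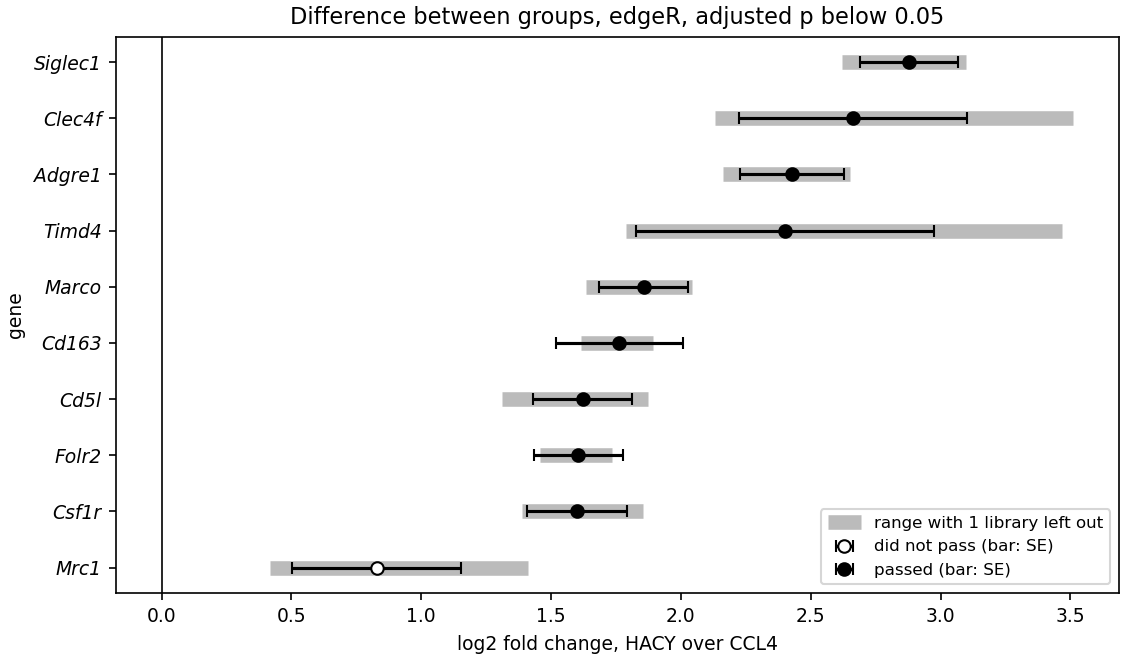
Log2 fold change of each gene, HACY over CCL4, with its standard error (black bar) and the range of the values with 1 library left out (grey band), ordered from the largest value at the top. Filled points passed the edgeR test and the open point, Mrc1 at 0.83, did not, and the grey band is widest for Timd4 (1.79 to 3.47) and Clec4f (2.13 to 3.51).

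Levels can be compared between genes on the authors' FPKM scale. In HACY libraries Cd5l was highest at 279 ± 76.9 FPKM, followed by Marco at 109 ± 23.7, Adgre1 at 30.9 ± 8.41, Mrc1 at 25.7 ± 8.13, Folr2 at 20.8 ± 2.87, Csf1r at 17.3 ± 2.46 and Siglec1 at 12.6 ± 3.04 (SD, n = 2). Clec4f at 4.00 ± 0.642, Cd163 at 2.79 ± 0.312 and Timd4 at 0.646 ± 0.189 FPKM came last. The ranges of Adgre1 and Mrc1, of Mrc1 and Folr2, and of Folr2 and Csf1r overlapped, so their order was not resolved. In CCL4 libraries Cd5l (100 ± 8.997 FPKM) and Marco (32.3 ± 4.08) again led, then Mrc1 (15.7 ± 7.78), Folr2 (7.47 ± 0.246), Adgre1 (6.16 ± 0.799) and Csf1r (6.06 ± 1.46). Siglec1 (1.85 ± 0.0264), Cd163 (0.894 ± 0.00416), Clec4f (0.693 ± 0.436) and Timd4 (0.163 ± 0.113) were lowest, and the ranges of Adgre1 and Csf1r and of Cd163 and Clec4f overlapped. By group mean alone, Adgre1 ranked 3 of 10 in HACY and 5 of 10 in CCL4, while Mrc1 ranked 4 of 10 in HACY and 3 of 10 in CCL4. Given the overlaps, the order of Adgre1 and Mrc1 in HACY and that of Adgre1 and Csf1r in CCL4 were not resolved. FPKM ratios of group means ran from 1.64 for Mrc1 to 6.83 for Siglec1, and for Timd4 the FPKM ratio was 3.96 where the fitted counts gave 5.28-fold.

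The members did not differ by the same factor, and this was set against general macrophage RNA. A list of 12 genes common to macrophages (the pan-macrophage list) had 98029 and 69367 counts in HACY libraries and 29965 and 44507 counts in CCL4 libraries, of which Lgmn, a lysosomal protease, held 30.8% to 35.2%. Per 1000 of these counts, Siglec1 had 28.8 and 28.2 in HACY, against 12.1 and 8.07 in CCL4. Adgre1 had 24.4 and 23.7 in HACY, against 12.5 and 10.3 in CCL4. On this divisor the groups stayed separated in both genes, with ratios of group means of 2.83 and 2.11. Log2 fold changes of the 12 divisor genes ran from 0.91 in Lyz2 to 2.41 in Ctss, with Lgmn at 1.21. Adgre1, at 2.43, was close to Ctss, and Siglec1 was at 2.88.

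Cd5l (175 and 162 per 1000 in HACY, against 161 and 122 in CCL4) and Csf1r (19.7 and 22.2, against 17.6 and 16.8) were close, with ratios of 1.19 and 1.22. Folr2 and Cd163 overlapped between groups on this scale (ratios of 1.18 and 1.35). Marco had a ratio of 1.38. Clec4f had 2.54 and 2.85 per 1000 in HACY, against 1.87 and 0.494 in CCL4, and Timd4 had 0.714 and 0.721 in HACY, against 0.634 and 0.135 in CCL4, so that for both the low value came from CCL4 replicate 2. Mrc1 went the other way, with 40.3 and 36.5 per 1000 in HACY, against 44.6 and 61.4 in CCL4. These ratios carry no test, and 11 of the 12 pan-macrophage genes were themselves higher in HACY. The list had 44507 counts in CCL4 replicate 2 and 29965 in CCL4 replicate 1, and a larger divisor lowers every per-1000 value of its library. Its genes differed unevenly between these libraries, from 0.909 times in Aif1 to 2.61 times in Lyz2. The part of other cell types in the list's counts was not tested.

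**Figure D3:**
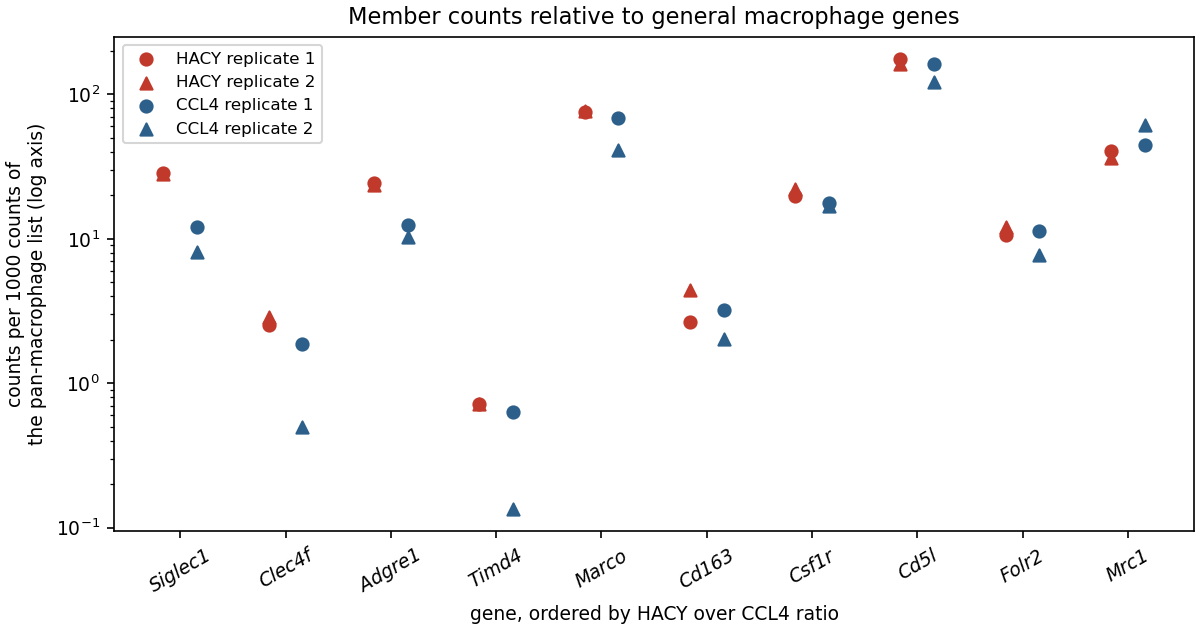
Counts of each gene per 1000 counts of the pan-macrophage list in each library, on a log axis, with genes ordered from the highest ratio of HACY to CCL4 group means (Siglec1, 2.83) to the lowest (Mrc1, 0.724). HACY libraries (red) lie left of CCL4 libraries (blue), and the lowest CCL4 points of Clec4f (0.494) and Timd4 (0.135) are those of replicate 2.

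Other genes of the Kupffer cell program went largely with the members. Of 12 further Kupffer cell genes 8 rose and none fell, with a median log2 fold change of 1.41. Their summed level overlapped between groups, at 2193 and 1662 CPM in HACY and 1767 and 1979 CPM in CCL4. The most abundant of the 12, Hmox1, went the other way without a call (log2 -0.31) and is described below. Slc11a1, a metal transporter of phagosomes, had 196 and 143 CPM in HACY, against 43.4 and 47.6 CPM in CCL4 (log2 1.89, SE 0.18, edgeR adjusted p = 0.00188). Il18bp, the secreted antagonist of interleukin-18, rose by 2.09 (SE 0.21), Slc40a1, the iron exporter ferroportin, by 0.86 (SE 0.12) and Tmem26, a membrane protein gene, by 1.90 (SE 0.26). Vsig4, a complement receptor of Kupffer cells named after its values were seen, had 65.8 and 47.3 CPM in HACY, against 27.3 and 11.6 CPM in CCL4 (log2 1.54, adjusted p = 0.0428). Like Clec4f and Timd4 it was lower in CCL4 replicate 2 than in CCL4 replicate 1, its value being 2.28 without CCL4 replicate 1, and it no longer passed when HACY replicate 1 (adjusted p = 0.281) or HACY replicate 2 (0.147) was left out, without the filter (0.0964), with the stricter filter (0.0511) or on FPKM (0.0592). Of the further Kupffer cell genes, 5 rose without HACY replicate 1, with the stricter filter and on FPKM, and 4 without HACY replicate 2.

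Transcription factors of Kupffer cells rose in 5 of 10 cases and fell in none (median 0.91). Spic, which acts in iron-recycling macrophages, had 28.5 and 25.7 CPM in HACY, against 10.6 and 5.72 CPM in CCL4 (log2 1.73, SE 0.30, edgeR adjusted p = 0.0138). Spi1, the gene of PU.1, rose by 1.39 (SE 0.24) and Nr1h3, the oxysterol receptor LXR alpha, by 1.01 (SE 0.15). Tfec, outside the naming rule, was just past the threshold (log2 1.01, adjusted p = 0.0495) and did not pass in 9 of the 13 alternatives. Nr1h3 is also made by hepatocytes, and it missed the threshold once HACY replicate 1 was left out (adjusted p = 0.0555). The count of 5 was 3 in that fit, 4 in 8 of the other alternatives, and 7 with DESeq2 or with CCL4 replicate 2 left out.

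Ligands and niche signals of Kupffer cells held 1 rise among 9 and no fall (median 0.26). Csf1, the main ligand of the CSF1 receptor, had 224 and 187 CPM in HACY, against 188 and 228 CPM in CCL4 (log2 -0.02, SE 0.15, edgeR adjusted p = 0.949), so that the groups overlapped while the receptor rose. Il34, the other ligand, was scarce, at 1.69 and 1.65 CPM in HACY and 0.758 and 2.02 CPM in CCL4 (adjusted p = 0.788). Both ligands were named after their values were seen. Bmp10, a ligand of endothelial and stellate cells, had 1.75 and 1.36 CPM in HACY, against 0.152 and 0.345 CPM in CCL4 (log2 2.61, adjusted p = 0.0339). Bmp10 did not pass after the loss of HACY replicate 1 (adjusted p = 0.203), HACY replicate 2 (0.105) or CCL4 replicate 1 (0.0924), nor with DESeq2 (0.0513) or a block on replicate number (0.0594), and its value was 3.30 without CCL4 replicate 2. That last fit called 2 of the 9 genes.

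Receptors and bridging proteins for apoptotic cells, the system to which Timd4 belongs, had 5 rises and 1 fall among 10 (median 0.76). Mertk, a receptor kinase of resident macrophages, had 96.2 and 71.1 CPM in HACY, against 28.8 and 28.5 CPM in CCL4 (log2 1.55, SE 0.18, edgeR adjusted p = 0.00347). Cd36, a class B scavenger receptor, rose by 1.34 (SE 0.21), Pros1, the bridging protein S, by 0.97 (SE 0.15) and Axl by 0.77 (SE 0.17). Stab1, outside the naming rule, was the remaining rise (1.01, adjusted p = 0.0470), and did not pass in 8 of the 13 alternatives. The fall was Gas6, the other bridging protein of Mertk and Axl, named after its values were seen (-0.58, SE 0.15, adjusted p = 0.0478). Axl fell short of the threshold when HACY replicate 1 (adjusted p = 0.194) or CCL4 replicate 1 (0.0657) was left out, by library size alone (0.0513), on FPKM (0.0667) and with the block on replicate number (0.0518). Gas6 fell short when HACY replicate 1 (0.322), HACY replicate 2 (0.138) or CCL4 replicate 2 (0.0601) was left out and with limma-voom (0.0540). In all those fits in which Axl fell short, 3 of the 10 rose, and with CCL4 replicate 2 left out 6 rose.

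Of 10 genes that handle haemoglobin, haem and iron, 3 rose and none fell (median 0.38). Besides Slc11a1 and Slc40a1, which also stand in the list of further Kupffer cell genes, Hp, the haptoglobin that hepatocytes secrete, rose by 1.76 (SE 0.25, edgeR adjusted p = 0.00736). Hmox1, the haem oxygenase that acts after Cd163 uptake, also stands in the list of further Kupffer cell genes and was named after its values were seen. It had 1537 and 1134 CPM in HACY, against 1543 and 1769 CPM in CCL4 (log2 -0.31, SE 0.17, adjusted p = 0.267), with no HACY library above a CCL4 library. Without CCL4 replicate 2, 5 of the 10 rose, and by library size alone 1 fell.

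General macrophage genes rose in 11 of 12 cases and fell in none, with a median log2 fold change of 1.501, beside 1.81 for the members. Ctss, a lysosomal protease, rose by 2.41 (SE 0.17), Aif1, the actin-binding protein IBA1, by 2.37 (SE 0.25), C1qa, a chain of complement C1q, by 1.75 (SE 0.17) and C1qc by 1.51 (SE 0.19). The exception was Lyz2, lysozyme, named after its values were seen, with 709 and 446 CPM in HACY, against 170 and 444 CPM in CCL4 (log2 0.91, edgeR adjusted p = 0.195). Without CCL4 replicate 2 the Lyz2 value was 1.76 (adjusted p = 0.00993). In Lyz2, as in Mrc1, CCL4 replicate 2 was close to HACY replicate 2.

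Markers of monocytes and monocyte-derived macrophages did not pass. Among 7 tested of 8, none rose or fell with edgeR at an adjusted p below 0.05, while 1 was higher at an unadjusted p below 0.05. DESeq2 called that many, Plac8, and limma-voom none. The median log2 fold change was 0.080. Their summed level was 103 and 83.4 CPM in HACY, against 41.4 and 104 CPM in CCL4, so that the groups overlapped, with CCL4 replicate 2 highest. Plac8 had 57.8 and 47.4 CPM in HACY, against 18.3 and 38.1 CPM in CCL4 (log2 0.90, edgeR adjusted p = 0.114, and 1.53 with adjusted p = 0.00586 without CCL4 replicate 2). Vcan, versican, had 19.6 and 14.98 CPM in HACY, against 10.5 and 22.6 CPM in CCL4 (log2 0.06, adjusted p = 0.931). The sign of Vcan turned when HACY replicate 1 or CCL4 replicate 1 was left out and under 2 other scalings. With CCL4 replicate 2 left out 2 of the monocyte markers rose, and with CCL4 replicate 1 left out 1 fell.

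**Figure D4:**
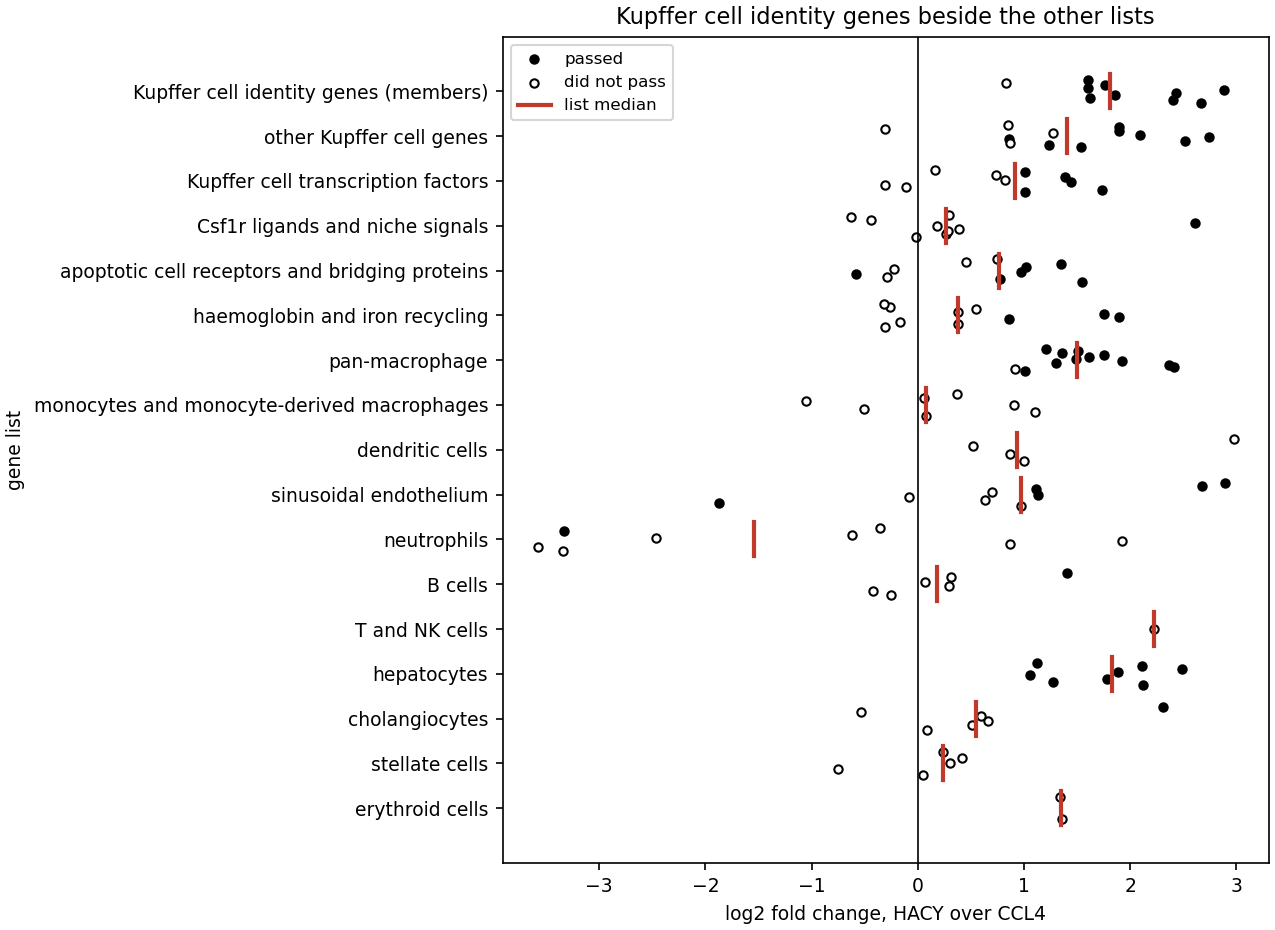
Log2 fold changes, HACY over CCL4, of the tested genes of each list, with filled points for genes that passed the edgeR test, open points for those that did not, and a red line at the list's median. The members (top, median 1.81), the pan-macrophage genes (1.501) and the hepatocyte genes (1.83) lie to the right of 0, while the monocyte genes (0.080) lie on both sides of it.

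Markers of other cell types moved beside the members. Sinusoidal endothelial genes, which share the mannose receptor with Kupffer cells, had 4 rises and 1 fall among 9, and summed to 901 and 699 CPM in HACY and 282 and 488 CPM in CCL4. Stab2, a scavenger receptor of sinusoidal endothelium named after its values were seen, had 147 and 95.2 CPM in HACY, against 40.5 and 82.7 CPM in CCL4 (log2 0.97, edgeR adjusted p = 0.109, and 1.58 with adjusted p = 0.0111 without CCL4 replicate 2). CCL4 replicate 2 lay above CCL4 replicate 1 in all 9 sinusoidal genes, at 1.12 to 2.76 times its CPM (2.04 in Stab2), in 11 of the 12 pan-macrophage genes, at 0.909 to 2.61 times, and in 4 of the 10 members. Those members were Mrc1 (1.99 times), Csf1r (1.38), Adgre1 (1.20) and Cd5l (1.10), and the other members ran from 0.308 times in Timd4 to 0.989 times in Folr2. CCL4 replicate 2 was also the higher in 9 of 9 neutrophil genes with a ratio, 6 of 6 stellate cell genes and 9 of 10 haemoglobin and iron genes. It was the higher in 4 of 8 hepatocyte and 3 of 6 cholangiocyte genes. T and NK cell genes gave 3 of 6, but from very few counts, such as 0 and 1 for Gzma in CCL4 libraries. Lrat, among the stellate cell genes, had 0 and 4 counts there. It was also the higher in 7 of 8 monocyte genes, 8 of 9 niche signals and 8 of 10 apoptotic cell genes. Further Kupffer cell genes gave 7 of 12 and Kupffer cell transcription factors 6 of 10. The higher level of CCL4 replicate 2 was thus not particular to endothelial and general macrophage genes. The share over all genes tested was not taken, so these counts have no baseline. Lyve1, a hyaluronan receptor, rose by 2.90 (SE 0.39) and Dnase1l3, a secreted nuclease that macrophages also make, by 2.67 (SE 0.42), with values of 3.73 and 3.50 without CCL4 replicate 2. Pecam1, an adhesion molecule of endothelium, rose by 1.12 and Fcgr2b, an inhibitory Fc receptor, by 1.13. Pecam1 missed the threshold when HACY replicate 1 (adjusted p = 0.124) or CCL4 replicate 1 (0.0501) was left out, on FPKM (0.0690) and with the block on replicate number (0.0757). Fcgr2b missed it when HACY replicate 1 (0.304) or HACY replicate 2 (0.176) was left out, and in 5 other fits. With the block 2 of the 9 rose, and with DESeq2 or with CCL4 replicate 2 left out 6 rose. The fall was Clec4g, outside the naming rule, a scarce transcript with 13 and 13 counts in HACY, against 38 and 69 counts in CCL4 (log2 -1.87, edgeR adjusted p = 0.0495). It was not called with DESeq2, with limma-voom or in 5 other alternatives. The part of endothelial RNA in the Mrc1 values was not tested.

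**Figure D5:**
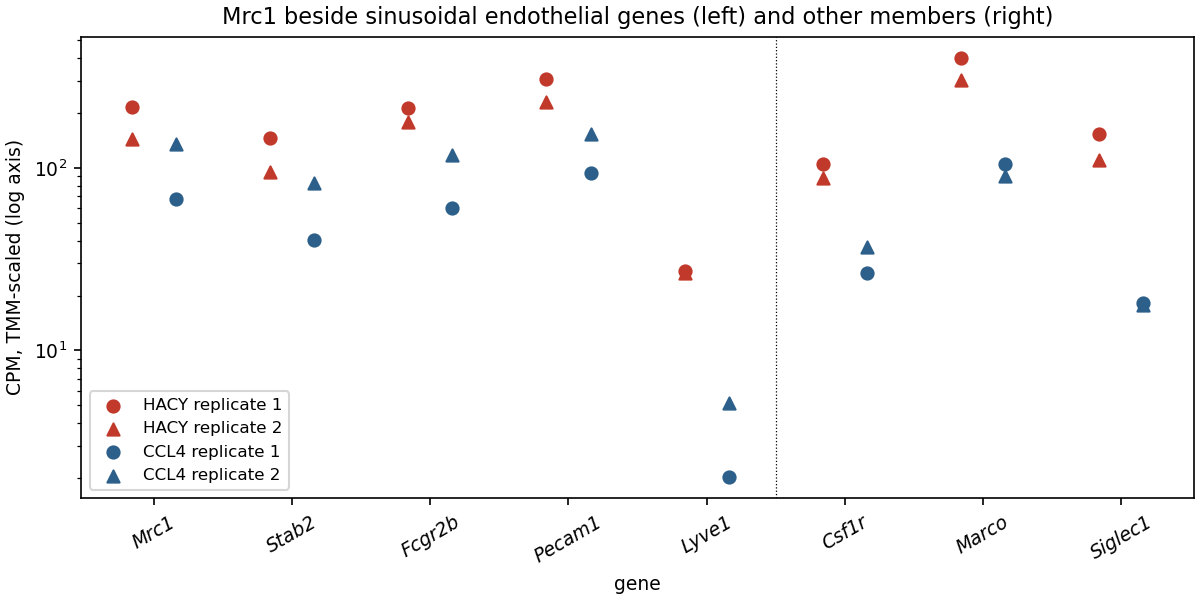
Abundance of Mrc1, of 4 sinusoidal endothelial genes and, right of the dotted line, of 3 other members in each library, as TMM-scaled CPM on a log axis, with HACY libraries (red) left of CCL4 libraries (blue). The CCL4 triangle (replicate 2) lies above the CCL4 circle (replicate 1) in Mrc1, Stab2, Fcgr2b, Pecam1, Lyve1 and Csf1r, and below it in Marco and Siglec1.

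Hepatocyte genes were higher in all 8 cases tested (median 1.83), with summed levels of 27522 and 34356 CPM in HACY and 8103 and 6643 CPM in CCL4. Albumin made up most of that sum, and 6 of the 8 were higher in HACY replicate 2 than in HACY replicate 1. Dendritic cell genes had no call among 4 tested of 6, with 1 higher by DESeq2 (22.4 and 15.3 CPM summed in HACY, 8.85 and 12.7 in CCL4), their most abundant being Zbtb46 (log2 0.52) and Clec9a (0.87), with Cd209a at 0 counts in every library. B cell genes had 1 rise, Cd22, among 6 (53.6 and 41.5 CPM summed in HACY, 32.2 and 34.4 in CCL4). Only 1 of 7 T and NK cell genes and 2 of 7 erythroid genes passed the filter, with summed levels of at most 2.61 and 9.99 CPM, and none was called. Of 8 neutrophil genes tested 1 fell (Cxcr2), and 6 fell with CCL4 replicate 1 left out, while none fell with either HACY library left out. Of 6 cholangiocyte genes 1 rose (Cftr, 4 of 6 with CCL4 replicate 2 left out), and of 5 stellate cell genes none was called. The part of these cell types in the members' values was not tested.

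By distance between log2 CPM profiles centred on the 4 libraries, the 5 genes nearest to the mean of the members were sought among 10965 genes that averaged 5 CPM or more. They were Evi2a, Kcnk13, a potassium channel, Pyhin1, of the HIN-200 family, Pltp, the phospholipid transfer protein, and Zbp1, a nucleic acid sensor. Distances ran from 0.0225 for Evi2a to 0.147 for Zbp1. Evi2a had 12.998 and 10.3 CPM in HACY, against 3.03 and 2.71 CPM in CCL4. Zbp1 had 301 and 270 CPM in HACY, against 80.2 and 69.5 CPM in CCL4. Log2 fold changes of the 5 lay between 1.93 and 2.02, all called, although Kcnk13 missed the threshold with HACY replicate 1 left out (edgeR adjusted p = 0.0588), and with 4 libraries such nearness describes mainly the difference between groups.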

How the data were processed

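The libraries were made with a stranded, paired-end mRNA kit, per the labels' protocols, and sample titles gave group and replicate. For each library the authors deposited raw read counts and FPKM values of every gene, per the file headers. The submitters' processing notes name Trimmomatic, HISAT2, Cufflinks, HTSeq and DESeq and the build mm10, with no version or role. No source used here states which annotation was counted or with which strand option.

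The deposited counts entered edgeR 4.0.16 (R 4.3.3) after filterByExpr (minimum count 10, minimum total 15), with TMM scaling, a robust quasi-likelihood fit and treatment as the only term. Tests were two-sided, and p-values of the 13428 genes were adjusted after Benjamini and Hochberg, with calls made below 0.05. SE is the size of the log2 fold change over the root of F, an approximation. The limit set by a count of 0 is 3 counts, which was 0.148 to 0.170 CPM. Replicates differed beyond sampling noise (chi-square per degree of freedom 19.8 for HACY, 35.6 for CCL4). Fits were tested on simulated data.

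Members, lists and tests were chosen with earlier results of these data known. The naming rule took the members, from each list up to 4 called genes by smallest p (else the 2 most abundant), and the 5 nearest profiles. A gene that the rule names is not reported here. Lists of other cell types are given mainly as counts and sums. As alternatives, libraries were scaled by RLE, by upper quartile or by size alone, DESeq2 1.42.0, limma-voom (limma 3.58.1) and limma on log2(FPKM + 1) replaced the test, the filter was dropped or raised (5 CPM in 2 libraries), replicate number was added as a block, and each library was left out. Locations come from GENCODE M21 on GRCm38 (the assembly of mm10) and promoters from RefSeq.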

Additional observations from a re-analysis of the deposited data

How the results depend on the processing

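All 128 values of the members under the 13 alternatives kept their direction. Since both HACY libraries lay above both CCL4 libraries in CPM in all 10 members, leaving 1 out could hardly have turned a sign. Of the calls, 2 were lost (Timd4 without either HACY library) and 1 was gained (Mrc1 without CCL4 replicate 2), so that 8 to 10 members rose with 1 library left out. Timd4 could not be fitted after the stricter filter or on FPKM, where 8 rose. The members' median ran from 1.45 on log2(FPKM + 1) to 1.96 without HACY replicate 2, and by library size alone it was 1.64. The number of all genes higher in HACY was 530 to 1840 with 1 library left out and 670 on FPKM, and that of genes lower was 99 to 1207, 1355 by library size alone and 738 with DESeq2. The cause was not tested. With the replicate block 893 genes were higher and 331 lower, and 9 members rose. Same-numbered libraries did not deviate together (r = -0.099 across genes), and the labels tie the numbers to no shared animal, so they are not pairs. Among the genes given a value in the text, the sign turned for 3, none of them called in any fit: Csf1 (-0.16 to 0.12 with 1 library left out, 0.11 without HACY replicate 2), Il34 (-0.27 to 1.13) and Vcan (-0.39 to 0.72, -0.15 without HACY replicate 1, -0.0049 by upper quartile and -0.10 by library size). Clec4f and Timd4 are limited by depth, with 6 to 56 counts in CCL4 libraries.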
